A study of Mus musculus with 45 samples.

Results

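The enzymes of glucose breakdown and glycogen turnover followed here across tissues, strains and diets are the products of 9 genes: Pgam2, Pkm, Pfkm, Aldoa, Eno3, Tpi1, Ldha, Pygm and Gys1. They were chosen as the probe sets that the array annotation pairs with 1 of these symbols and no other, which gave 11 probe sets for the 9 genes, of 12488 on the array and of 10833 with a single gene symbol. Aldoa and Pkm had 2 probe sets each and the other genes 1.

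RNA came from skeletal muscle, liver and epididymal fat of C57Bl/6 mice, written B6, and 129S6/SvEvTac mice, written 129S6, on 1 of 2 diets, labelled low-fat and high-fat. Per the design text the tissues were taken at 6 months of age. That text gives the calories of a single diet, 57% carbohydrate, 22% protein and 21% fat, without saying to which of the labels it belongs. No allele, agent or transgene is named for any group. Each of the 45 arrays carried cRNA from 25 µg of RNA pooled from 2 to 3 mice, so n counts pools and every spread below is between pools. The 12 groups held 4 arrays each, except B6 low-fat muscle and both 129S6 fat groups, which held 3. Values are the deposited log2 signals; their precision is limited by the number of arrays, and the signal of one probe set says nothing of the level of another.

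Glycolysis splits glucose into pyruvate in the cytosol, and lactate dehydrogenase turns pyruvate into lactate when the flux exceeds what mitochondria take up. Skeletal muscle, and its fast fibres above all, stores glucose as glycogen and breaks it down at the onset of contraction. Several steps are carried out in muscle by isozymes of their own, among them the phosphorylase Pygm, the phosphofructokinase subunit Pfkm, the mutase Pgam2 and the enolase Eno3. Others, such as Tpi1, Ldha and Aldoa, serve glycolysis in many tissues.

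The stretches of 250 bases before 1 of the starts that RefSeq lists for Pgam2, Pygm and Ldha are shown because these genes stand for the different patterns below: Pgam2 for the largest difference between the diets in B6 muscle, Pygm for the widest gap between muscle and the other tissues on 1 probe set, and Ldha for a gene with a high signal in all 3 tissues. Sequences are from RefSeq on GRCm38.p6 and are written 5′ to 3′ on the gene's strand, with each match to CANNTG, the E-box read by myogenic and other helix-loop-helix factors, or to ACGTG, the core read by hypoxia-inducible factors, in capitals. Pgam2 is at chr11:5803797-5804046 on the minus strand, Pygm at chr19:6384158-6384407 on the plus strand and Ldha at chr7:46845554-46845803 on the plus strand.
Pgam2: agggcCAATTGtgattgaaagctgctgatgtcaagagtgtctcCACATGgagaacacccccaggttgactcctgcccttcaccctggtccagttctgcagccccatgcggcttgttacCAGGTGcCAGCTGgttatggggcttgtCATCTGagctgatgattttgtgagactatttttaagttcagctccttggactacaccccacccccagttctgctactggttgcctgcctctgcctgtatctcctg
Pygm: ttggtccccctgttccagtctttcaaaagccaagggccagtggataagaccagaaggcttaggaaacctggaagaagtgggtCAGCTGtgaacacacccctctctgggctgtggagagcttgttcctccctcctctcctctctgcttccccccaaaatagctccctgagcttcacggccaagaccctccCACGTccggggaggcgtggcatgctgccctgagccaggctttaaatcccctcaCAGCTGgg
Ldha: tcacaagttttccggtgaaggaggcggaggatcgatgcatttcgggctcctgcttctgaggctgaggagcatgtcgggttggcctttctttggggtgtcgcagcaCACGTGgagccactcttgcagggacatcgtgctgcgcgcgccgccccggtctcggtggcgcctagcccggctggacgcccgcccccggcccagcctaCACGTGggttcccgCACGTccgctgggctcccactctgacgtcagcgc

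The Pgam2 window held 5 matches to CANNTG and none to ACGTG. The Pygm window held 2 matches to CANNTG and 1 to ACGTG. In the Ldha window 2 matches to CANNTG and 5 to ACGTG were found on both strands, and each CANNTG there was a CACGTG that holds ACGTG in both directions. All 9 genes were matched, with 16 listed windows between them. CANNTG, which is its own reverse complement, was in 14 of the 16 and in 66.2% of all 32851 windows of this length; ACGTG was in 7 of the 16 and in 16.6% of all; TATAAA was in 0 of the 16 and in 12.4% of all. A match is a description of the letters and not a site of binding.

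Before the results, 5 muscle arrays have to be named. The SD of log2 signal over all probe sets of an array was 1.80 to 1.88 in 10 muscle arrays. It was 1.68, 1.62, 1.59 and 1.70 in B6 high-fat replicates 5 to 8 and 1.57 in 129S6 low-fat replicate 9. So no B6 high-fat array had an SD within the range of the B6 low-fat arrays, and diet in B6 and array SD can be separated only through the 129S6 arrays and the spread within groups. For B6 high-fat against low-fat muscle the mean was 1.648 ± 0.052 (SD, n = 4) against 1.842 ± 0.035 (n = 3), with an exact two-sided permutation p of 0.0286, the smallest that this design allows, and 0.114 after Benjamini-Hochberg adjustment over 24 such comparisons. Array SD is computed from the same signals as the members, and the member differences in muscle are given with and without it as a covariate. Skeletal muscle markers were bright on all muscle arrays. Their mean log2 signal over 8 of 8 listed genes ran from 11.79 to 11.99 in B6 low-fat, 10.56 to 11.53 in B6 high-fat, 10.13 to 11.91 in 129S6 low-fat and 11.77 to 11.89 in 129S6 high-fat muscle. The RNA of muscle fibres, fewer of them or less RNA in each, cannot be told apart in bulk tissue.

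In muscle of B6 mice 7 of the 11 member probe sets were lower on the high-fat than on the low-fat diet, and none was higher. Those 7 were Pgam2, one Pkm probe set, Eno3, Tpi1, Pfkm, Pygm and Gys1, with differences from 13.5-fold for Pgam2 to 3.17-fold for Gys1. Over all 10833 probe sets 10.5% were called lower, 1133 in number, and 15.5% were called higher, 1684 in number. The median log2 difference of the members was -2.58 against 0.18 over all probe sets. None of the 7 calls held with array SD as a covariate, a fit in which 0.748% of all probe sets were called either way. In that fit 4 members had an unadjusted p under 0.05, beside 1467 of all 10833 probe sets. Of these 4, Pgam2 was lower, and the Aldoa probe sets and the Pkm probe set outside the 7 were higher.

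Pygm, the muscle phosphorylase that releases glucose 1-phosphate from glycogen, had log2 signals of 11.95, 11.99 and 12.00 in B6 low-fat muscle and of 10.76, 9.48, 8.29 and 10.64 in B6 high-fat replicates 5 to 8. Its signals were 9.50, 12.21, 12.04 and 12.19 in 129S6 low-fat replicates 9 to 12 and 11.20, 12.07, 11.79 and 11.75 in 129S6 high-fat muscle. All B6 high-fat arrays lay below all B6 low-fat arrays, and 129S6 low-fat replicate 9 was the single low array among the other groups. The B6 diet difference was -2.18 ± 0.63 (SE, limma adjusted p = 0.027), and -0.21 ± 0.47 with array SD as a covariate (adjusted p = 0.88).

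Gys1, the glycogen synthase of muscle and of most other tissues except liver, had 10.72, 10.56 and 10.65 in B6 low-fat and 9.39, 8.70, 8.31 and 9.50 in B6 high-fat muscle. In 129S6 it had 8.37, 10.58, 10.89 and 10.83 on the low-fat and 9.96, 10.37, 10.82 and 10.93 on the high-fat diet. The arrays fell into the same low and high sets as for Pygm. The difference was -1.67 ± 0.50 (SE, limma adjusted p = 0.030), the smallest of those called, and -0.01 ± 0.29 with array SD (adjusted p = 0.99).

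Pfkm, the muscle subunit of phosphofructokinase at the committed step of glycolysis, had 11.36, 11.29 and 11.35 in B6 low-fat muscle. It had 9.06, 7.74, 7.14 and 8.96 in B6 high-fat muscle, 8.02, 11.51, 11.17 and 11.43 in 129S6 low-fat and 10.27, 11.31, 11.37 and 11.38 in 129S6 high-fat muscle. In 129S6 high-fat muscle replicate 1 was lower than the other 3, as it was for Pygm and Gys1. The B6 diet difference was -3.11 ± 0.70 (SE, limma adjusted p = 0.013), and -0.80 ± 0.43 with array SD (adjusted p = 0.44).

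Aldoa, the aldolase that splits fructose 1,6-bisphosphate, was read by 2 probe sets whose suffix marks probes shared within a sequence family, so near-identical copies may contribute. The brighter one, 160090_f_at, had 13.29, 13.40 and 13.28 in B6 low-fat and 12.16, 11.38, 11.15 and 12.89 in B6 high-fat muscle, with 10.43 in 129S6 low-fat replicate 9 and 13.15 to 13.49 in the other 129S6 arrays. The other, 161889_f_at, had 11.82, 12.13 and 12.23 in B6 low-fat and 12.10, 10.27, 10.14 and 12.45 in B6 high-fat muscle. On this probe set B6 high-fat replicate 5 lay within the low-fat range, replicate 8 above it and replicates 6 and 7 below it. Neither probe set passed the test: the differences were -1.43 ± 0.59 (SE, limma adjusted p = 0.081) and -0.82 ± 0.64 (adjusted p = 0.32), and both had the opposite sign with array SD as a covariate, 0.60 ± 0.28 and 1.20 ± 0.44 (adjusted p = 0.36 and 0.25).

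Tpi1, the isomerase that interconverts the 3-carbon products of aldolase, had 12.09, 11.84 and 11.81 in B6 low-fat and 9.60, 8.17, 7.73 and 9.62 in B6 high-fat muscle. Its values were 8.31, 12.21, 11.89 and 12.05 in 129S6 low-fat and 11.73, 11.97, 11.97 and 12.06 in 129S6 high-fat muscle. The low arrays were the 4 of B6 on the high-fat diet and 129S6 low-fat replicate 9. The difference was -3.13 ± 0.75 (SE, limma adjusted p = 0.015), and -0.52 ± 0.30 with array SD (adjusted p = 0.47).

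Pgam2, the muscle phosphoglycerate mutase whose upstream sequence is printed above, showed the largest difference among the members between the diets in B6. Its log2 signals were 11.83, 11.93 and 12.06 in B6 low-fat and 9.16, 7.82, 6.52 and 9.26 in B6 high-fat muscle, and 8.70, 12.07, 11.76 and 11.73 in 129S6 low-fat and 11.67, 11.87, 11.95 and 11.92 in 129S6 high-fat muscle. B6 high-fat replicate 7 was the lowest of the 15 muscle arrays for Pgam2, as for every other member except Aldoa and Pkm 162032_f_at, on which 129S6 low-fat replicate 9 was lowest. The group means were 11.94 ± 0.12 (SD, n = 3) and 8.19 ± 1.29 (n = 4). The difference was -3.75 ± 0.72 (SE, limma adjusted p = 0.0077). With array SD it was -1.40 ± 0.45 (adjusted p = 0.18), the lowest log2 difference of the 11 in that fit.

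Eno3, the muscle enolase, had 12.55, 12.40 and 12.38 in B6 low-fat and 10.06, 8.77, 8.18 and 10.18 in B6 high-fat muscle. In 129S6 it had 8.82, 12.35, 12.55 and 12.50 on the low-fat and 12.57, 12.40, 12.41 and 12.48 on the high-fat diet. Outside the 5 low arrays its signals spanned only 12.35 to 12.57. The B6 diet difference was -3.15 ± 0.73 (SE, limma adjusted p = 0.014), and -0.59 ± 0.29 with array SD (adjusted p = 0.39).

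Pkm, the pyruvate kinase gene of muscle and most other tissues, gave unlike values on its 2 probe sets. On 96066_s_at, whose suffix marks probes shared between transcripts, the signals were 13.03, 12.88 and 12.82 in B6 low-fat and 9.93, 8.77, 8.28 and 9.99 in B6 high-fat muscle, 8.31, 12.83, 12.87 and 12.97 in 129S6 low-fat and 12.60, 12.82, 12.67 and 12.67 in 129S6 high-fat muscle. On 162032_f_at they were 10.21, 10.04 and 9.80 in B6 low-fat and 9.48, 9.39, 9.19 and 9.94 in B6 high-fat muscle, so that these groups overlapped, while 129S6 low-fat replicate 9 was again low at 8.09. The differences were -3.67 ± 0.86 (SE, limma adjusted p = 0.014) and -0.52 ± 0.44 (adjusted p = 0.36). With array SD they were -0.65 ± 0.33 and 0.92 ± 0.29 (adjusted p = 0.41 and 0.17), so the second changed sign.

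Ldha, the lactate dehydrogenase subunit that predominates in fast muscle, had 12.56, 12.86 and 13.03 in B6 low-fat and 11.53, 8.99, 8.34 and 12.08 in B6 high-fat muscle. It had 8.67, 12.82, 12.87 and 12.79 in 129S6 low-fat and 12.64, 12.77, 12.76 and 12.64 in 129S6 high-fat muscle. B6 high-fat replicates 6 and 7 were about as low as 129S6 low-fat replicate 9, whereas replicates 5 and 8 were nearer the low-fat arrays. The difference of -2.58 ± 0.98 did not pass (SE, limma adjusted p = 0.062), and with array SD it was 0.58 ± 0.64, of the opposite sign (adjusted p = 0.73).

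**Figure D1:**
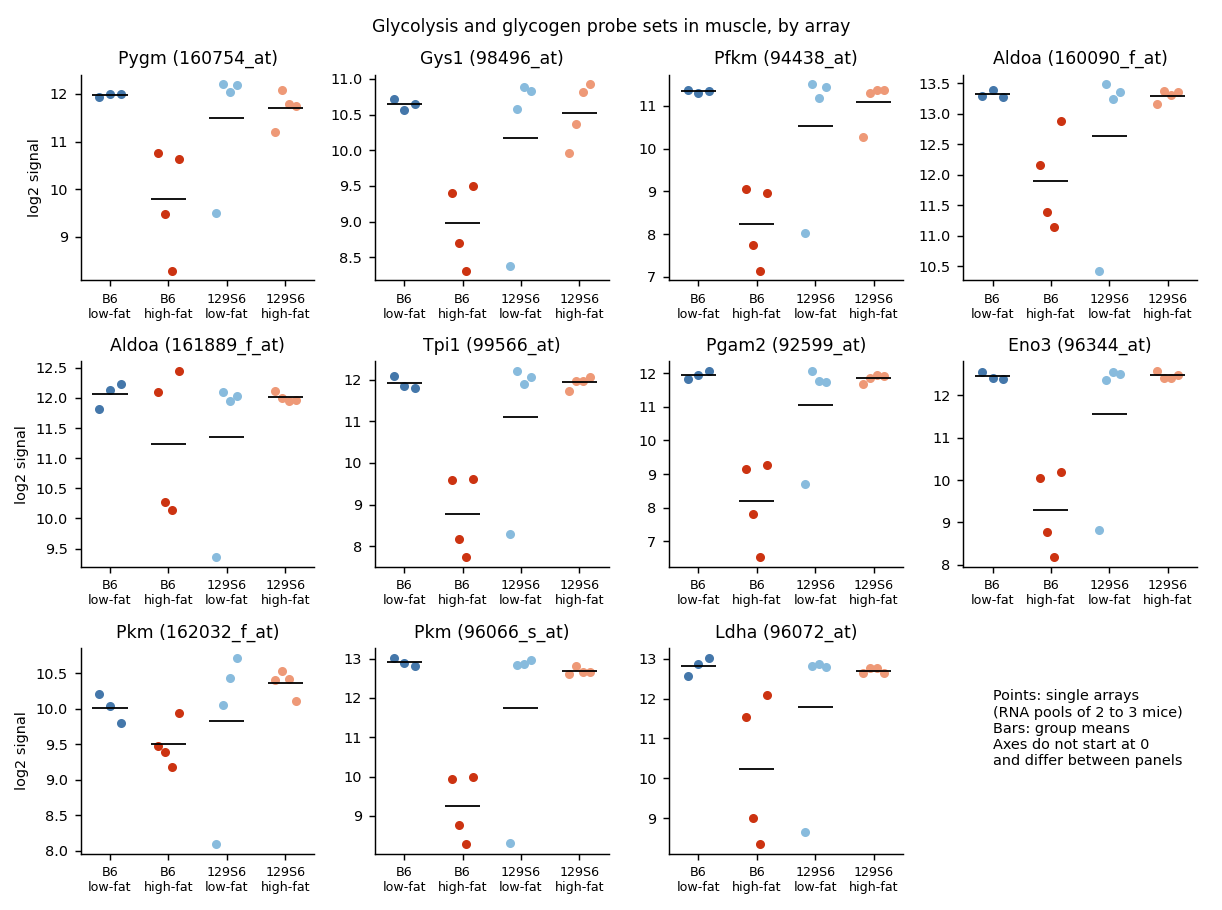
Log2 signal of the 11 member probe sets on the 15 muscle arrays, by strain and diet; points are arrays, bars are group means, and axes differ between panels and do not start at 0. The 4 B6 high-fat arrays and 129S6 low-fat replicate 9 are low in most panels, while on Aldoa 161889_f_at and Pkm 162032_f_at some B6 high-fat arrays lie among the B6 low-fat arrays.

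All 4 B6 high-fat arrays lay below all 3 B6 low-fat arrays for 9 of the 11 member probe sets, and the share over all probe sets was 14.4%. The members did not shift by one amount on these arrays. In B6 high-fat replicate 5 the distance from the mean of the B6 low-fat arrays ran from 0.04 for Aldoa 161889_f_at to -2.98 for Pkm 96066_s_at, and in replicate 7 from -0.83 for Pkm 162032_f_at to -5.43 for Pgam2. Pgam2 was at -2.78, -4.12, -5.43 and -2.68 from that mean on the log2 scale in replicates 5 to 8, and Ldha at -1.29, -3.82, -4.47 and -0.74. In 129S6 low-fat replicate 9, against the mean of the other 3 arrays of its group, Pkm 96066_s_at was lowest at -4.58 and Pkm 162032_f_at least low at -2.31. The size of the difference therefore varied both among the members and between the arrays of one group.

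Some markers outside the pathway also moved on these arrays, and others moved little. Atp2a1, the calcium pump of fast muscle, had 13.40 to 13.61 in B6 low-fat muscle and 11.00, 10.06, 9.23 and 11.56 in B6 high-fat replicates 5 to 8. Acta1, skeletal actin, had 13.66 to 14.00 and 12.76, 13.27, 13.15 and 13.77, and Pvalb, the calcium buffer of fast fibres, had 13.81 to 14.26 and 13.48, 13.88, 13.80 and 14.22. Of 8 skeletal muscle markers 2 were called lower and 0 higher in B6 on the high-fat diet, of 10 fast fibre markers 3 lower and 1 higher, and of 8 slow fibre markers 3 lower and 0 higher, beside 10.5% lower and 15.5% higher over all probe sets. Both of the 2 measured erythroid markers of the 3 listed were lower too, with 3 of 6 measured adipocyte markers and 1 of 5 macrophage markers lower and 1 of 7 measured hepatocyte markers higher. With array SD as a covariate 0 markers of these 7 lists were called. The mean of the adipocyte list was 8.30 to 8.74 in B6 low-fat and 7.58 to 8.10 in B6 high-fat muscle, against 10.35 to 11.30 in fat. The Gapdh 3′ minus 5′ signal of the array's own control probe sets is read as a measure of how complete the transcripts were. It averaged 2.38 ± 0.96 (SD, n = 4) in B6 high-fat and 0.63 ± 0.25 (n = 3) in B6 low-fat muscle, with an exact permutation p of 0.057 (0.17 after adjustment). In 129S6 muscle it averaged 2.43 ± 1.38 (SD, n = 4) on the high-fat and 1.45 ± 0.97 (n = 4) on the low-fat diet. By array it was 3.36, 2.05, 1.19 and 2.92 in B6 high-fat replicates 5 to 8. It was 1.12 in 129S6 low-fat replicate 9 and 4.43 in 129S6 high-fat replicate 1. Gapdh is itself a gene of glycolysis, so the measure is not independent of the pathway. Its 3′ signal was 13.6 to 13.8 in B6 low-fat muscle and 12.6, 11.3, 10.0 and 12.8 in B6 high-fat replicates 5 to 8. The part of these markers and of transcript completeness in the members' values was not tested. With that Gapdh measure as a covariate 8 members were called lower in B6, beside 11.5% of all probe sets.

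**Figure D2:**
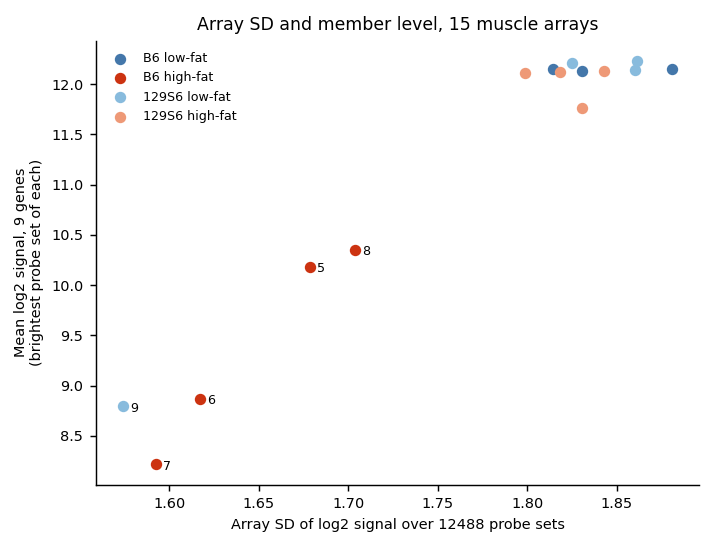
Mean log2 signal of the 9 genes, each by its brightest probe set, against the SD of log2 signal over the 12488 probe sets of the array, for 15 muscle arrays coloured by group, with replicate numbers beside the low ones. The 10 arrays with an SD from 1.80 to 1.88 have means from 11.76 to 12.23, and the other 5 from 8.22 to 10.35.

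Leaving out 1 array moved these calls. Without 129S6 low-fat replicate 9, which enters the test of diet in B6 only through the spread, 10 members were called lower in B6, all but Aldoa 161889_f_at, and Pgam2 stood at -3.75 ± 0.47 (SE, limma adjusted p = 5.2e-05). The calls lower over all 10833 probe sets moved too, from 1133 to 1609 without that array. Without B6 low-fat replicate 13, 1 member was called, beside 175 probe sets lower in all. Without low-fat replicate 14 or 15, 5 were called beside 480 and 848 in all, and without high-fat replicate 6 or 7, 5 beside 684 and 659. Without the 3 muscle arrays of the lowest SD, an alternative chosen after the data were seen, 9 members were called beside 1306 lower in all; Pgam2 was then at -2.73 and Eno3 at -2.33, and Aldoa 161889_f_at turned to 0.21.

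In 129S6 muscle no member was called between the diets, and 0% of all probe sets were called by limma either way, with 205 of them at an unadjusted p under 0.05. All 11 member differences were positive, from 0.22 to 0.95, with array 9 in the low-fat group. Without that array they ran from -0.45 to -0.00 with 0 called, and with array SD as a covariate from -0.21 to 0.35 with 0 called against 0% of all probe sets. No diet difference of the members in 129S6 was thus shown in either direction.

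Whether diet acted differently in the strains is the question of the interaction, the B6 diet difference minus the 129S6 one. Pgam2, Pkm 96066_s_at and Eno3 passed this test, with -4.54 ± 0.98, -4.62 ± 1.17 and -4.06 ± 0.99 (SE, limma adjusted p = 0.035, 0.049 and 0.044), beside 2.16% of all probe sets called lower. All 11 members had a negative value, from -4.62 to -1.06. With array SD as a covariate 0 members were called, beside 0.0185% of all probe sets, and Pgam2 was at -1.67 ± 0.58, Pkm 96066_s_at at -0.94 ± 0.43 and Eno3 at -0.94 ± 0.37 (adjusted p = 0.63, 0.81 and 0.72). Without 129S6 low-fat replicate 9 the calls rose to 6, adding Pfkm, Tpi1 and Gys1, and Pgam2 was at -3.75 ± 0.66 (SE, limma adjusted p = 0.0031); the calls lower over all probe sets went from 234 to 626. Without any one of B6 low-fat replicates 13 to 15, B6 high-fat replicates 6 and 7 or the 4 129S6 high-fat arrays, 0 members were called, beside 0 to 41 lower in all. Without B6 high-fat replicate 5 or 129S6 low-fat replicate 10 or 11, 5 were called, beside 483, 491 and 553 in all.

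On the high-fat diet B6 muscle was lower than 129S6 muscle for the same 7 member probe sets as in the B6 diet comparison, which shares its B6 high-fat arrays. The share called lower over all probe sets was 11.9%. The differences ran from -3.66 ± 0.67 for Pgam2 and -3.45 ± 0.79 for Pkm 96066_s_at to -1.54 ± 0.46 for Gys1 (SE, limma adjusted p = 0.0038, 0.0098 and 0.026). Eno3 and Tpi1 were at -3.17 and -3.15, Pfkm at -2.86 and Pygm at -1.91. Groups did not overlap for 10 of the 11 probe sets, beside 14.0% of all. With array SD as a covariate 0 members were called, beside 1.36% of all probe sets; Pgam2 was the lowest at -1.54 ± 0.41 (adjusted p = 0.088). On that scale Eno3 was at -0.87 ± 0.26, Tpi1 at -0.79 ± 0.27, Pfkm at -0.77 ± 0.39 and Pkm 96066_s_at at -0.73 ± 0.30 (adjusted p = 0.14, 0.19, 0.41 and 0.29), Pygm at -0.13 ± 0.43 and Gys1 at -0.05 ± 0.26 (adjusted p = 0.94 and 0.96), and both Aldoa probe sets, Pkm 162032_f_at and Ldha were positive. In this comparison 10 members were called without 129S6 low-fat replicate 9, beside 4692 probe sets called either way in all, where the full set of arrays gave 3067. Without B6 high-fat replicate 6 or 7 or 129S6 high-fat replicate 3 or 4, 5 were called, beside 763 to 862 lower in all, where the full set gave 1294. On the low-fat diet no member differed by the test between the strains in muscle, beside 0.231% of all probe sets called, with differences from 0.19 to 1.17; without 129S6 low-fat replicate 9 they ran from -0.38 to 0.09, and with array SD from -0.26 to 0.21, with 0 called beside 0.618% of all. 

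**Figure D3:**
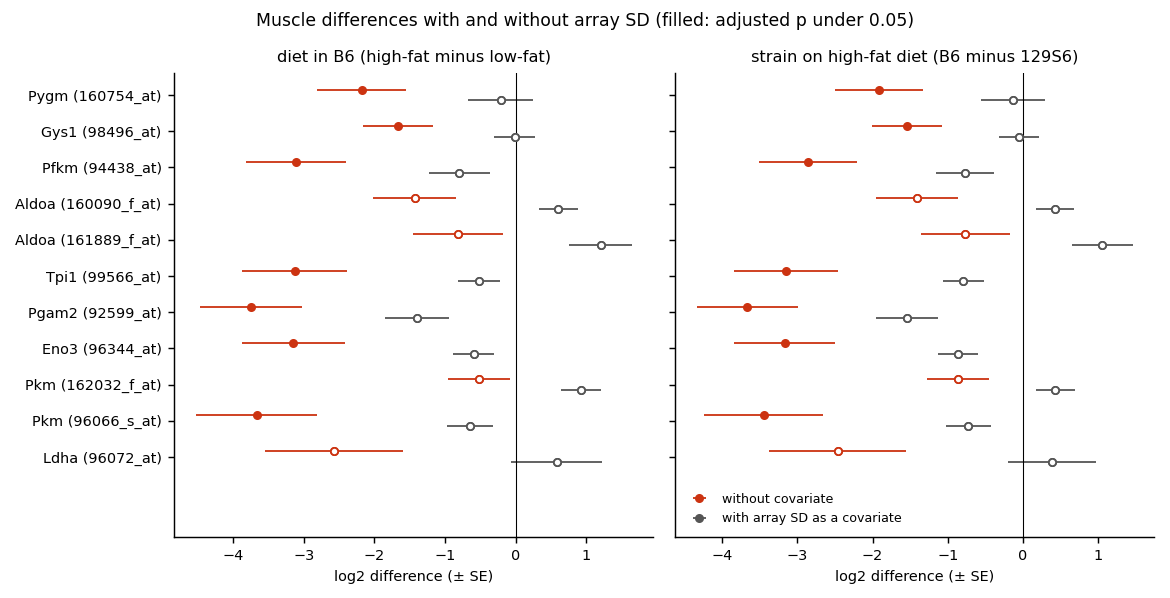
Log2 differences (± SE, limma) of the member probe sets in muscle for diet in B6 and for strain on the high-fat diet, without a covariate in red and with array SD as a covariate in grey; filled points have an adjusted p under 0.05. Without it 7 probe sets are called lower in each panel; with it none is called, and both Aldoa probe sets, Pkm 162032_f_at and Ldha change sign.

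The other genes of glucose and glycogen metabolism on the array gave 45 probe sets for 37 of 53 listed genes. In B6 muscle 5 of the 45 were lower and 3 higher on the high-fat diet, beside 10.5% and 15.5% of all probe sets, with a median log2 difference of -0.07. The lowest p-values among the lower ones belonged to Hk1, a hexokinase, at -2.02 ± 0.36, Fbp2, the fructose bisphosphatase of muscle, at -0.99 ± 0.21, and Slc2a4, the insulin-regulated glucose transporter, at -2.03 ± 0.44 (SE, limma adjusted p = 0.0062, 0.011 and 0.012). Higher were Pgm2, a phosphoglucomutase, at 0.68 ± 0.17, Pdk4, the kinase that shuts off pyruvate dehydrogenase, at 0.90 ± 0.28, and Gsk3a, a kinase that inhibits glycogen synthase, at 0.61 ± 0.21 (SE, limma adjusted p = 0.017, 0.033 and 0.044). Pgm2 had only 4.12 to 5.27 in muscle, under the median of every array, where a signal may be mostly background. With array SD as a covariate Pdk4 was the single call among the 45, at 1.53 ± 0.31 (adjusted p = 0.042), and Hk1 was at -0.87 ± 0.23 and Fbp2 at -0.60 ± 0.25 (adjusted p = 0.11 and 0.30). Its signals were 10.86, 10.68 and 11.27 in B6 low-fat and 12.14, 11.76, 11.15 and 12.32 in B6 high-fat muscle, with replicate 7 inside the low-fat range.

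Between the strains on the high-fat diet 12 of the 45 were lower in B6 and 4 higher, beside 11.9% and 16.4% of all probe sets. The lowest p-values belonged to Hk1 at -2.07 ± 0.33, Fbp2 at -0.80 ± 0.19 and Ldhb, the lactate dehydrogenase subunit of heart and slow muscle, at -1.08 ± 0.29 (SE, limma adjusted p = 0.0023, 0.012 and 0.017). Pgm2, Gsk3a and Pklr 101472_s_at were higher, at 0.62, 0.74 and 0.64. The Pgm2 signals are the low ones given above, and the other Pklr probe set, 101471_at, had 4.77 to 5.40 in muscle. With array SD Hk1 was lower at -1.04 ± 0.21 and Pdk4 was higher at 1.28 ± 0.28 (SE, limma adjusted p = 0.029 and 0.041). In the interaction Hk1 and Fbp2 were lower, at -2.31 ± 0.48 and -1.48 ± 0.29 (SE, limma adjusted p = 0.033 and 0.032), and with array SD none was called. Diet in 129S6 and strain on the low-fat diet gave 0 calls among the 45 by limma, with 5 and 3 at an unadjusted p under 0.05.

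Genes outside the pathway followed the members closely in muscle. Over the 15 arrays the mean of the 9 genes had its highest Pearson correlations, among 1481 other probe sets with a mean above 8, with Rplp0 at 0.996, Atp2a1 at 0.993, Sdhc at 0.992, Myoz1 at 0.990 and Rps18 at 0.990. These are a large-subunit ribosomal protein, the calcium pump named above, a subunit of succinate dehydrogenase, a protein of the Z-disc and a small-subunit ribosomal protein. The points share the 5 low arrays, which span most of the range, so this is a description of those arrays.

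Across tissues the members were higher in muscle than in liver and in fat, with all 4 groups of a tissue weighted equally. Of the 11 probe sets, 10 were called higher in muscle than in liver, beside 43.5% of all, and 10 higher than in fat, beside 42.2% of all. The median member difference was 3.68 from liver and 1.49 from fat, against 0.12 and 0.09 over all probe sets. Pygm and Pgam2 had the largest fitted differences. Pygm had 3.54 to 4.45 on the 16 liver and 3.57 to 4.04 on the 14 fat arrays, against 11.20 to 12.21 on the 10 muscle arrays with a usual SD, and 8.29 to 10.76 on the other 5. No liver or fat array came near any muscle array. These liver and fat signals, and those of Pgam2 in liver below, lie under the median of every array, 6.07 to 6.24, where a signal may be mostly the background of the probe set. Such differences may therefore understate the change, and their order is that of the signals only. Its differences were 7.38 ± 0.19 and 7.44 ± 0.20 (SE, limma adjusted p = 1.8e-29 and 7.2e-28).

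Pgam2 had 4.54 to 5.06 in liver and 4.43 to 7.00 in fat, and differed by 5.91 ± 0.25 and 5.82 ± 0.26 (SE, limma adjusted p = 2.9e-22 and 6.3e-21). Here the ranges of fat and muscle met, since the highest fat array, at 7.00, exceeded the lowest muscle array, at 6.52. Eno3 was higher in muscle by 4.11 and 4.40 and Pfkm by 3.76 and 3.88. For Eno3 and Pfkm liver and fat lay within 0.30 and 0.11 of each other and did not differ by the test.

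Gys1 was higher in muscle by 2.30 than in liver and by 1.49 than in fat, and higher in fat than in liver by 0.81 ± 0.16 (SE, limma adjusted p = 4.8e-05). Aldoa and Pkm followed the same order. Aldoa 160090_f_at was higher in fat than in liver by 2.15 ± 0.20 and Pkm 96066_s_at by 3.01 ± 0.31 (SE, limma adjusted p = 6.0e-12 and 1.5e-10). In all 5 probe sets, those of Gys1, Aldoa and Pkm, were called higher in fat than in liver, beside 27.4% of all. In muscle against fat Pkm 96066_s_at was higher by 0.99, with 5 muscle arrays at 8.28 to 9.99 below most fat arrays.

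Tpi1 and Ldha had the smallest differences between muscle and the other tissues over all arrays. Tpi1 was higher in muscle by 0.80 ± 0.24 than in liver and by 0.67 ± 0.25 than in fat (SE, limma adjusted p = 0.0041 and 0.017). Ldha had medians of 11.43 in liver and 11.26 in fat, 12.78 on the 10 usual muscle arrays and 8.99 on the other 5, and its differences of 0.48 ± 0.30 and 0.67 ± 0.31 were not called (SE, limma adjusted p = 0.16 and 0.052). With array SD as a covariate, or without the B6 high-fat groups and 129S6 low-fat muscle replicate 9, all 11 probe sets were called higher in muscle than in each other tissue. In the array SD fit 5511 of all 10833 probe sets were called either way between muscle and liver, and 5938 between muscle and fat.

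**Figure D4:**
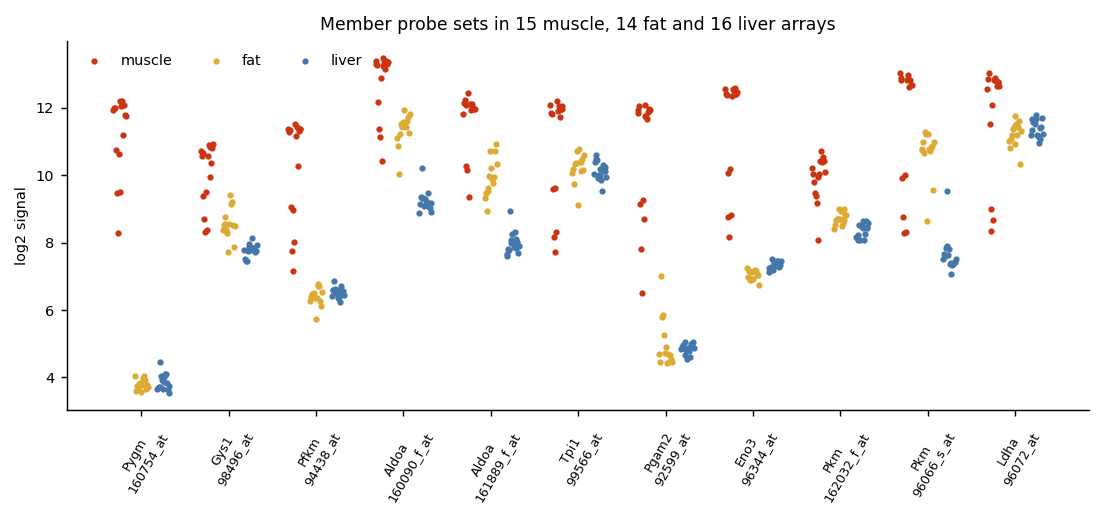
Log2 signal of each member probe set on 15 muscle (red), 14 fat (yellow) and 16 liver (blue) arrays; each point is an array, and the axis does not start at 0. Pygm lies at 3.54 to 4.45 in liver and fat and at 8.29 to 12.21 in muscle, whereas Tpi1 and Ldha overlap between tissues because of the low muscle arrays.

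Isozymes of the same steps showed other orders. Pgam1, the mutase of most other tissues, was lower in muscle, with a difference of -1.49 ± 0.10 from liver and -1.59 ± 0.11 from fat (SE, limma adjusted p = 1.7e-15 for both). Pfkl, the liver phosphofructokinase, was at -0.69 from liver and -1.55 from fat. Pklr, the pyruvate kinase of liver and red cells, was lower in muscle than in liver, with differences of -2.46 on 101471_at and -0.41 on 101472_s_at. Ldhb 101990_at was higher in muscle, by 1.67 than in liver and 1.17 than in fat, while its other probe set, 161945_at, lay between 3.12 and 4.13 in all tissues.

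In liver few members were called. Between the diets in B6 Aldoa 161889_f_at and Gys1 were higher on the high-fat diet, 2 of 11 members beside 16.2% of all probe sets called either way. Aldoa 161889_f_at had 7.61, 7.67, 7.82 and 7.77 on the low-fat and 8.94, 8.00, 8.08 and 8.24 on the high-fat diet, a difference of 0.60 ± 0.16 (SE, limma adjusted p = 0.018). The groups did not overlap, and high-fat replicate 13 stood well above the others. That array also had the highest signal of muscle genes among the B6 liver arrays, with Acta1 at 9.57 against 5.28 to 7.48 on the other 7 and Myh1 at 6.22 against 3.08 to 3.72, and Pkm 96066_s_at at 9.53 against 7.51 to 7.90. The mean of the 5 macrophage markers was highest there too, 8.82 against 7.33 to 7.60 on the other 7. The part of muscle or macrophage RNA in these values was not tested. Without that array the Aldoa 161889_f_at difference was 0.39 ± 0.11 (SE, limma adjusted p = 0.032). The Gapdh 3′ minus 5′ signal averaged 0.296 ± 0.052 (SD, n = 4) in B6 high-fat and 1.26 ± 0.44 (n = 4) in B6 low-fat liver, with an exact permutation p of 0.029, the smallest this design allows (0.11 after adjustment). With it as a covariate Aldoa 161889_f_at was higher by 0.69 ± 0.17 and Tpi1 lower, at -0.45 ± 0.15 (SE, limma adjusted p = 0.011 and 0.041), 2 of 11 members beside 18.4% of all, and Gys1 was at 0.28 ± 0.11 (adjusted p = 0.078). The brighter Aldoa probe set, 160090_f_at, was at 0.07 without B6 high-fat replicate 13 and was not called in either case. Only 1 member was called in this comparison without any one of B6 low-fat replicates 2 to 4, B6 high-fat replicates 13 to 15, 129S6 low-fat replicates 5 and 12 or 129S6 high-fat replicates 7 to 9.

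Gys1 in liver had 7.78, 7.51, 7.47 and 7.44 on the low-fat and 7.75, 7.86, 7.95 and 7.78 on the high-fat diet in B6, so that the groups overlapped through low-fat replicate 1. The difference was 0.29 ± 0.09 (SE, limma adjusted p = 0.047), and without high-fat replicate 13 it was 0.32 ± 0.10 and no longer called (adjusted p = 0.057). On the low-fat diet Gys1 was lower in B6 than in 129S6, which had 7.83, 8.12, 7.85 and 7.84, at -0.36 ± 0.09 (SE, limma adjusted p = 0.021), 1 of 11 members beside 12.0% of all probe sets. It was not called without B6 low-fat replicate 2, 3 or 4 or without 129S6 low-fat replicate 6. Without B6 high-fat replicate 13 the strain comparison on the low-fat diet had 4 calls, with Pygm at -0.32, Aldoa 161889_f_at at -0.35 and Pkm 96066_s_at at 0.36 added to Gys1, and 2 members were called without B6 low-fat replicate 1, 129S6 low-fat replicate 12 or 129S6 high-fat replicate 9 or 10. Calls over all probe sets in this comparison ran from 654 to 2342 over the fits without 1 array, where the full set gave 1301. Among the liver arrays, the 4 of B6 on the low-fat diet form a run of array numbers of their own. Group and run thus cannot be told apart in both comparisons. They also had a higher array SD than the B6 high-fat ones, 1.94 ± 0.032 against 1.86 ± 0.019 (SD, n = 4 each), and with it as a covariate neither Gys1 difference was called.

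Between the diets in 129S6 liver 0 members were called, beside 0.111% of all, and between the strains on the high-fat diet 0, beside 4.24%. The B6 and 129S6 high-fat liver arrays lie in different runs of array numbers. Strain and run can be told apart between them only through the 129S6 low-fat arrays, which lie in both runs. In the interaction Pygm passed, at 0.65 ± 0.18 (SE, limma adjusted p = 0.047), 1 of 11 beside 4.56% of all. Its signals were 3.66, 3.70, 3.71 and 3.73 in B6 low-fat, 4.45, 4.06, 3.92 and 3.67 in B6 high-fat, 3.85, 4.00, 4.10 and 4.11 in 129S6 low-fat and 3.84, 3.64, 3.54 and 3.75 in 129S6 high-fat liver. All are low beside its muscle signals and lie under the median of every array, where a signal may be mostly background. The highest is again B6 high-fat replicate 13. Without that array the Pygm value was 0.51 ± 0.14 (SE, limma adjusted p = 0.058), and Aldoa 161889_f_at was called in its place at 0.60 ± 0.15 (SE, limma adjusted p = 0.039). No member was called in the interaction without any one of B6 low-fat replicates 2 to 4, B6 high-fat replicate 15, 129S6 low-fat replicate 12 or 129S6 high-fat replicates 8 to 10. On the high-fat diet 1 member was called between the strains without B6 high-fat replicate 16. Over the fits without 1 array, calls over all probe sets ran from 260 to 1000 in the interaction. For strain on the high-fat diet they ran from 269 to 862.

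In epididymal fat no member was called in any comparison. The shares of all probe sets called were 0.185% for diet in B6, 0.572% for diet in 129S6, 0.849% for strain on the low-fat diet, 0.434% for strain on the high-fat diet and 0% for the interaction, where 315 had an unadjusted p under 0.05. Of the members 3, 4, 2, 1 and 1 had an unadjusted p under 0.05 in these 5 comparisons. Over all 10833 probe sets 1537, 1503, 924, 944 and 315 did, in the same order. The lowest adjusted p belonged to Gys1 in 129S6, with 9.42, 9.14 and 9.21 on the low-fat and 8.53, 7.88 and 8.51 on the high-fat diet and a difference of -0.95 ± 0.22 (SE, limma adjusted p = 0.081). Its groups did not overlap, and it was called without B6 high-fat replicate 7, a fat array with a Gapdh 3′ minus 5′ signal of 6.03, at an adjusted p of 0.0064 together with Aldoa 161889_f_at and Pfkm, and without 129S6 high-fat replicate 14, at 0.045. Replicates 12 and 13 of 129S6 high-fat fat also had a high Gapdh measure, of 5.81 and 5.93. With that measure as a covariate the Gys1 difference was -0.64 (adjusted p = 0.42). Without B6 high-fat replicate 7, Gys1 was also called between the strains on the low-fat diet, at -0.70 (adjusted p = 0.034), and Aldoa 161889_f_at on the high-fat diet, at -0.75 (adjusted p = 0.043). All B6 fat arrays and 129S6 low-fat replicate 9 form 1 run of array numbers, and the other 129S6 fat arrays another. Strain and run thus cannot be told apart between the high-fat groups. Between the low-fat groups they can be only through replicate 9. Over fits without 1 array, calls over all probe sets ran from 11 to 1074 for diet in 129S6. For strain they ran from 28 to 284 on the low-fat and 27 to 1002 on the high-fat diet. The same array 7 in B6 was low for Pkm 96066_s_at, at 8.65 against 11.22 to 11.27 on the other 3 arrays of its group, and for Tpi1, at 9.13 against 10.37 to 10.79.

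Aldoa in fat did not pass the test. In B6 its 160090_f_at signals were 11.11, 10.86, 10.04 and 11.22 on the low-fat and 11.52, 11.43, 11.58 and 11.93 on the high-fat diet, with no overlap and a difference of 0.81 ± 0.23 (SE, limma adjusted p = 0.20). On 161889_f_at the difference was 0.77 ± 0.23 in B6 and 0.80 ± 0.26 in 129S6 (adjusted p = 0.22 for both). The mean of the 5 macrophage markers was 8.76 to 9.48 on the low-fat and 9.32 to 9.98 on the high-fat diet in B6 fat, and 7.94 to 8.38 and 9.03 to 9.60 in 129S6 fat; none of the 5 was called for diet in either strain, and their part in the Aldoa values was not tested.

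Pgam2 was uneven within the fat groups. It had 4.69, 4.46, 7.00 and 5.78 in B6 low-fat, 5.87, 5.26, 4.71 and 4.91 in B6 high-fat, 4.43, 4.70 and 4.46 in 129S6 low-fat and 4.65, 4.54 and 4.46 in 129S6 high-fat fat. The 3 highest arrays, B6 low-fat replicates 4 and 5 and B6 high-fat replicate 2, were also the 3 highest for Prm1, a protamine of sperm, at 11.29, 10.27 and 10.34, and for Ldhc, the lactate dehydrogenase of the testis, at 9.57, 8.37 and 8.21. On the other 11 arrays Prm1 was 5.83 to 9.48 and Ldhc 3.52 to 6.99. The mean over 6 germ cell genes, a list made after the values were seen, was 5.61 to 8.37 in B6 low-fat, 6.54 to 7.78 in B6 high-fat, 5.46 to 6.01 in 129S6 low-fat and 5.80 to 6.47 in 129S6 high-fat fat. Skeletal muscle markers on the same fat arrays averaged 6.20 to 6.86 in B6 and 6.07 to 6.42 in 129S6. The part of germ cell or muscle RNA in the Pgam2 signal was not tested. A list of 3 genes of the epididymis, Lcn5, Adam7 and Gpx5, also made after the values were seen, was highest on other fat arrays, B6 low-fat replicates 1 and 3 and B6 high-fat replicates 6 and 7, with means of 11.31, 11.70, 10.00 and 10.30.

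**Figure D5:**
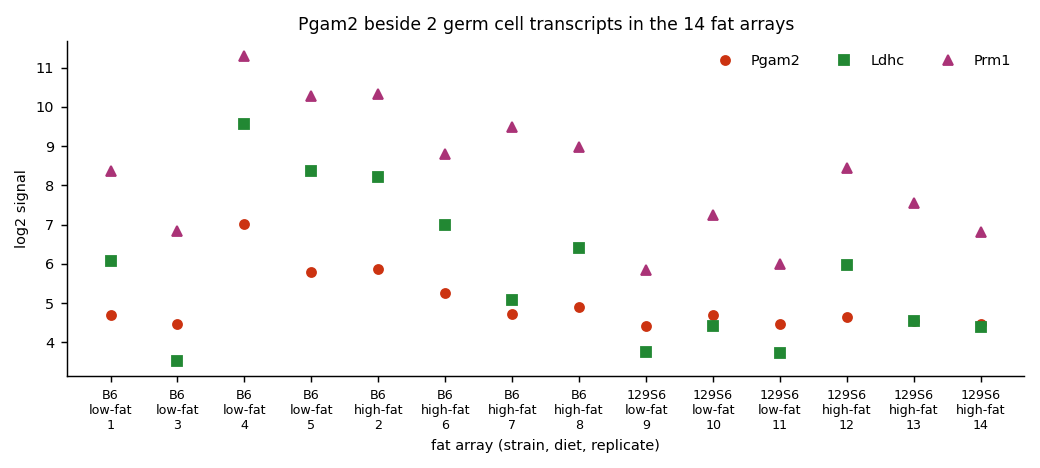
Log2 signal of Pgam2 (circles) beside Ldhc (squares) and Prm1 (triangles) on the 14 fat arrays, by strain, diet and replicate; the axis does not start at 0. The 3 arrays with the highest Pgam2, at 5.78 to 7.00, are the 3 with the highest Ldhc and Prm1.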

How the data were processed

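Expression was measured on 45 single-colour Affymetrix arrays. The deposited log2 values were made by the authors with RMA, per the submitters' processing notes, and run from 2.26 to 14.26; the software version, and whether all arrays were normalized together, are not stated in the labels. Of 12488 probe sets, 66 were controls, 396 had several symbols and 1193 none; the 10833 with 1 symbol were tested, and 10817 of these matched the reference by Entrez ID. Samples were grouped by the labelled tissue, strain and diet. Each tissue was fitted with limma 3.58.1 (R 4.3.3), 1 mean for each of its 4 groups, two-sided, Benjamini-Hochberg over all 10833, threshold 0.05; tissues were compared in 1 fit of the 12 groups. The fit was checked on simulated arrays. The members, lists and tests were chosen with earlier results of these data known. All member probe sets are named; of the other 53 pathway genes, the 3 called each way with the smallest adjusted p in each muscle comparison; of genes like the members, the 5 with the highest correlation. The germ cell and epididymis lists were made after the values were seen. Alternatives were other probe set choices, filters, normalization, priors, covariates, runs of array numbers as a block and leaving out arrays.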

Additional observations from a re-analysis of the deposited data

Results flagged for a closer look

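Among 99 groups of 4 arrays, 16 had 1 array far from the other 3. Chance alone flags about 1 in 20 groups, but the 99 are 11 probe sets on the same arrays and not independent. The 16 are therefore not set against that rate. Of these, 10 belonged to replicate 9 of 129S6 low-fat muscle, which was low for Aldoa at 10.43 and 9.35, Pygm at 9.50, Pgam2 at 8.70, Pfkm at 8.02, Pkm 96066_s_at at 8.31, Ldha at 8.67, Eno3 at 8.82, Gys1 at 8.37 and Tpi1 at 8.31. In 129S6 high-fat muscle replicate 1 was low for Pfkm at 10.27. In B6 high-fat liver replicate 14 was low for Pkm 162032_f_at at 8.08 and replicate 13 high for Pkm 96066_s_at at 9.53, and in 129S6 low-fat liver replicate 6 was high for Gys1 at 8.12. In B6 high-fat fat replicate 7 was low for Pkm 96066_s_at at 8.65, and replicate 2 stood apart for Eno3 at 7.12.

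By a test of the difference itself, a diet difference unlike between the strains was called for 3 probe sets in muscle and 1 in liver. In muscle the B6 difference minus the 129S6 one was -4.54 for Pgam2, -4.62 for Pkm 96066_s_at and -4.06 for Eno3. In liver it was 0.65 for Pygm, on signals of 3.54 to 4.45. These liver signals lie under the median of every array, where a signal may be mostly background. None of the 3 muscle values was called with array SD as a covariate. The liver value was called in 4 of 16 fits without 1 array, and without B6 high-fat replicate 13, the array with the highest signal, it was 0.51 (limma adjusted p = 0.058).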

How the results depend on the processing

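With array SD as a covariate 0, 0 and 0 members were called in muscle for diet in B6, strain on the high-fat diet and the interaction. Signs then reversed for Aldoa 160090_f_at (0.60, 0.43 and 0.38 in that order), Aldoa 161889_f_at (1.20, 1.05 and 0.99), Pkm 162032_f_at (0.92, 0.43 and 0.69) and Ldha (0.58, 0.38 and 0.36), and in the interaction for Pygm (0.00053). Without the 3 muscle arrays of the lowest SD (B6 high-fat replicates 6 and 7 and 129S6 low-fat replicate 9), Aldoa 161889_f_at turned to 0.21, 0.26 and 0.23. The interaction then had 6 member calls, beside 849 of all 10833 probe sets, where the full set of arrays gave 317. It had 2 with quantile normalization within the tissue, 5 without the dimmest probe sets and 5 with the Gapdh 3′ minus 5′ covariate. Over all probe sets these 3 fits had 284, 436 and 1636 calls. Over fits without 1 array the calls ran from 1 to 10 for diet in B6, 5 to 10 for strain on the high-fat diet and 0 to 6 for the interaction. In liver, diet in B6 had 1 call with 1 probe set per gene, with a trend and robust prior or with array SD. Over all probe sets tested these fits had 1502, 1712 and 1177 calls. Liver strain on the low-fat diet had 2 members called with 1 probe set per gene, 2 without the dimmest, 0 within its own groups, 0 with array SD and 3 with the Gapdh covariate, and the liver interaction 2 with the latter. The calls over all probe sets tested were 1142, 1240, 541, 504 and 1930 for this strain comparison and 1166 for the interaction. Without 1 array the liver counts of members ran from 1 to 2 for diet in B6, 0 to 4 for strain on the low-fat diet and 0 to 1 for the interaction. Strain on the high-fat diet ran from 0 to 1. Over all probe sets they ran from 913 to 2583, 654 to 2342, 260 to 1000 and 269 to 862 in that order. In fat, diet in B6 had 1 call without the arrays of high Gapdh 3′ minus 5′ signal, and strain on the low-fat diet 2. The latter had 1 within its own groups and 1 with the Gapdh covariate. The calls over all probe sets in these fits are not given here, so these counts are not read as a result about the members. Without 1 array fat had 0 to 3 calls for diet in 129S6 and 0 to 1 for each strain comparison. Over all probe sets there were 11 to 1074 for diet in 129S6, 28 to 284 for strain on the low-fat and 27 to 1002 on the high-fat diet. Fat over liver had 3 calls with 1 probe set per gene, a fit whose calls over all probe sets are not given here. Without 1 array the tissue contrasts had 10 to 11, 10 to 11 and 5 to 6. Over all probe sets they had 6933 to 7456, 7429 to 7772 and 5707 to 6349 calls either way. Over all probe sets the muscle calls went from 2817 to 81 (38 higher, 43 lower) for diet in B6, from 3067 to 147 for strain on the high-fat diet and from 317 to 2 for the interaction with array SD, and the interaction had 1636 with the Gapdh covariate. Without 1 array they ran from 225 to 4626, 1499 to 4692 and 0 to 956. The cause of these changes was not tested.

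Replicate numbers are shared only across tissues. Over the 12 same-numbered pairs the correlation of deviations from group means ran from -0.40 to 0.28 and 2 were over 0.1. With the replicate block the tissue contrasts had 10, 10 and 5 calls and no call changed. Runs of array numbers as a block could not be fitted for the liver comparisons with the B6 low-fat group, and the interaction has no fit within only the groups compared. The number of pooled arrays limits the precision.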
